A study of Mus musculus with 8 samples.

Results

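The 9 genes described here encode the mucins and the mucous cell machinery of the airway, and their expression was followed in whole lungs of CC-LR mice given TTI-101, a small-molecule inhibitor of STAT3. The genes were chosen by name as Muc1, Muc4, Muc5ac, Muc5b, Muc16, Agr2, Clca1, Spdef and Foxa3, and all 9 were found among the 54532 genes of the deposited count table. In CC-LR mice, Cre recombinase driven by the locus of the club cell secretory protein recombines an LSL-K-rasG12D allele on a C57BL/6 background, so that mutant K-ras is expressed in the lung epithelium and lung tumors form; control and treated mice both carried these alleles. At 14 weeks of age, RNA-seq was performed on 4 control mice and on 4 mice that had received TTI-101 for 4 weeks, with 1 library per mouse. The labels do not give the sex, dose or route for each library, nor what the control mice received. The control libraries held 16446481 to 26873509 counts in sum and the treated ones 16075855 to 25920509. In each group the library numbered 1 was the deepest, and all others held at most 18220467 counts.

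Airway mucus is built from the gel-forming mucins Muc5ac and Muc5b, which are secreted by club and goblet cells and by submucosal glands, whereas Muc1, Muc4 and Muc16 are anchored in the apical membrane and form the layer beneath the gel. Mucous cell differentiation is driven by the transcription factors Spdef and Foxa3, and goblet cells then express Agr2, a disulfide isomerase of the endoplasmic reticulum needed for mucin folding, and Clca1, a secreted protein of the mucus. These genes are known to increase in allergic airways, classically through IL-13, and several of them are also expressed by lung adenocarcinoma cells.

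The promoters of Muc1, Muc4 and Spdef are shown because the levels of these 3 genes followed one another over the 8 mice. Each run holds 250 bases before and 50 after the RefSeq start, 5′ to 3′ on the strand of the gene, and capitals mark every match to the motifs searched. The motifs were TTCNNNGAA (STAT factors), GGAT (the core bound by Spdef) and TGTTTAC and TATTTAC (FOXA factors), read on both strands. On GRCm38.p6 the windows lie at chr3:89228806-89229105 (Muc1, plus strand), chr16:32735636-32735935 (Muc4, plus strand) and chr17:27728902-27729201 (Spdef, minus strand).
Muc1: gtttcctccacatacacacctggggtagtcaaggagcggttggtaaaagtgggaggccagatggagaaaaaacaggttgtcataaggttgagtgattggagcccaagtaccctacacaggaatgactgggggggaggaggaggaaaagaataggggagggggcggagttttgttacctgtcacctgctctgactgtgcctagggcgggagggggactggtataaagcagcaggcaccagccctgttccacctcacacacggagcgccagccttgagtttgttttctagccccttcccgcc
Muc4: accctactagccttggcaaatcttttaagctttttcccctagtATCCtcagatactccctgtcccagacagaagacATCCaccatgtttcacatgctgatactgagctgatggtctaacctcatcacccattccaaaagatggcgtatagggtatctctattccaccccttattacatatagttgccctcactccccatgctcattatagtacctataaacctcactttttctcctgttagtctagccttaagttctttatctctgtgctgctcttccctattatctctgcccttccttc
Spdef: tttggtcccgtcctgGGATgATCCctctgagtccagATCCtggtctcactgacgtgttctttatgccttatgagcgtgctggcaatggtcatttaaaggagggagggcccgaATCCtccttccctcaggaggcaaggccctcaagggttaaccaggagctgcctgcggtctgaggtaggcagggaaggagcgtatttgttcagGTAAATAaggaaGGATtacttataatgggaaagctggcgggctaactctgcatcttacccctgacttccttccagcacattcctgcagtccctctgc
Promoters of 6 of the 9 genes were matched in the RefSeq table, those of Muc1, Muc4, Muc16, Agr2, Spdef and Foxa3. TTCNNNGAA was found in 0 of the 6, against 8.30% of 32851 promoters of the same length. GGAT was found in 5 of the 6, Muc1 being the exception, and in 79.6% of all promoters. Spdef held it 5 times and Foxa3 4 times, while Muc4 and Agr2 held it 2 times each. TATTTAC was found in Spdef and in 3.04% of all promoters, and TGTTTAC in 0 of the 6 and in 3.65% of all. In Spdef it lies on the strand opposite to the gene, where the printed letters GTAAATA begin at position -47. All of these are matches of letters in a short window and not binding sites.

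The lung identity of the libraries was checked first. Sftpc, a surfactant protein of alveolar type 2 cells, averaged 26340 CPM (counts scaled by TMM to a common library size) over the 8 mice, and Scgb1a1, the club cell secretory protein, averaged 18100 CPM. Control mouse 4 and treated mouse 2 stood apart in their cell type markers. Control mouse 4 had 82580 CPM of summed alveolar type 2 markers against 45080 to 54260 in the other control mice, 2569 CPM of alveolar type 1 markers against 4319 to 4574, and 43.8 CPM of mesothelial markers against 174.5 to 313. TTI-101-treated mouse 2 had 534 CPM of summed submucosal gland and serous markers against 40.8 to 63.1 in the other treated mice, nearly all of it from lactoferrin (Ltf), since 6 of the 10 genes of that list were at 0 in every library. Of 17 secreted goblet cell proteins, 6 had enough counts to be tested. Among the trefoil factors, Tff1 was at 0 counts in every library and Tff3 at no more than 1, whereas Tff2 had 81 to 493 counts, and Bpifb1 reached 9831 counts in treated mouse 2.

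Levels per kilobase of the gene length listed with the counts set Muc1 apart from the other 8 genes. Muc1 averaged 200.5 CPM per kb over the 8 mice, with 132 to 312 in single mice, above every value of every other gene. Muc5b followed with 10.1 CPM per kb (3.83 to 20.5) and Muc4 with 9.76 CPM per kb (3.52 to 26.5), and these neighbours did not differ beyond the spread between mice. Agr2 averaged 2.44, Spdef 1.75, Clca1 0.884, Muc5ac 0.543, Foxa3 0.447 and Muc16 0.271 CPM per kb, and each of them overlapped its neighbours in this order. The membrane mucin Muc1 was thus the most abundant transcript of the set per length in every mouse, and the gel-forming mucin present was mainly Muc5b.

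**Figure D1:**
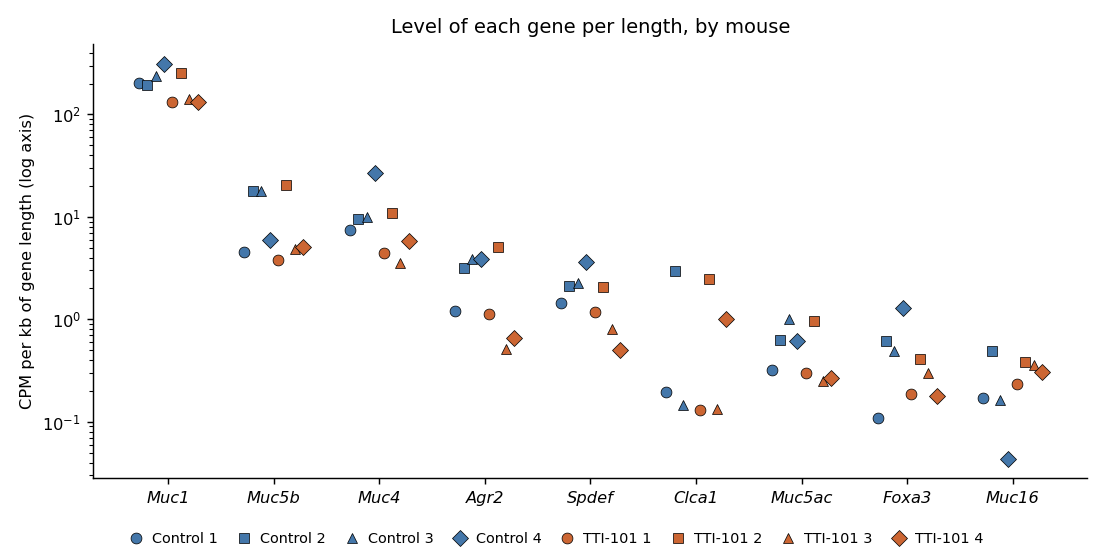
Level of each gene in CPM per kb of listed gene length (log axis), with 1 point per mouse, control in blue and TTI-101-treated in orange. Muc1 lies between 132 and 312 in every mouse, above all other genes, and the point of control mouse 4 for Clca1, at 0 counts, cannot be drawn on the log axis.

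None of the mucous genes (0 of 9) had an adjusted p under 0.05 by edgeR's quasi-likelihood test, nor did any other gene (0% of 17138 tested), while 6.61% of all genes tested had an unadjusted p under 0.05. At that unadjusted threshold edgeR called 2 of the 9, Muc4 and Spdef, both at lower levels in TTI-101-treated lungs. DESeq2 called the same 2, and limma-voom called Muc1 beside them. The groups overlapped in all 9 genes, and were separate without overlap in 2.96% of all genes. The estimated log2 fold change of TTI-101 over control was negative in 7 of the 9 genes, with a median of -0.54, while the median over all genes tested was 0.00. All 9 genes passed the filter on low counts. In these whole-lung libraries, fewer cells of a type and less RNA per cell cannot be told apart.

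**Figure D2:**
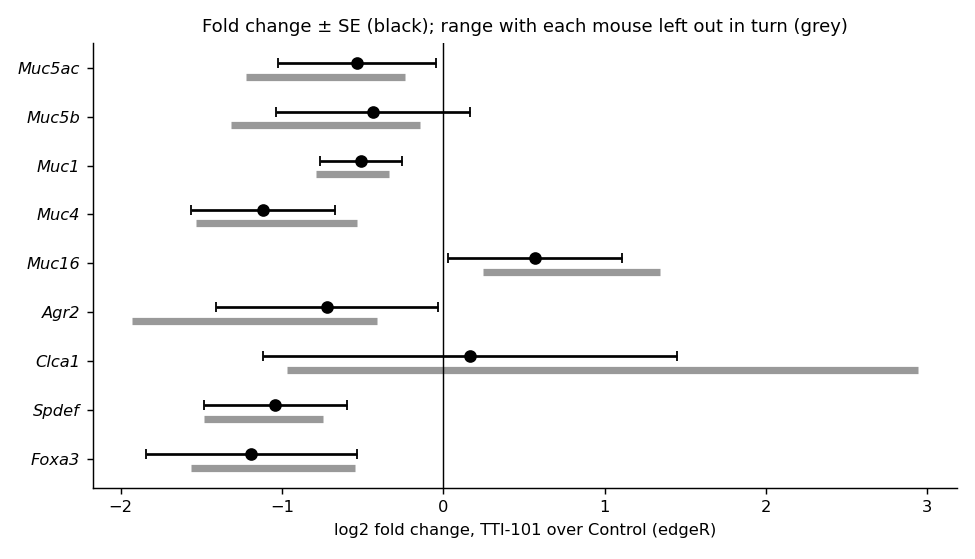
Log2 fold change of TTI-101 over control for each gene with its standard error (black), and the range of the estimate when each mouse is left out in turn (grey). Muc4, Spdef and Foxa3 have estimates below -1, Muc16 lies above 0 throughout, and the range for Clca1 reaches from -0.97 to 2.94.

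Among the gel-forming mucins, Muc5ac (ENSMUSG00000037974, GRCm38 chromosome 7, 141788972 to 141819231) was at 3.45, 6.81, 10.8 and 6.59 CPM in control mice 1 to 4 and at 3.20, 10.3, 2.67 and 2.86 CPM in TTI-101-treated mice 1 to 4. Treated mice 1, 3 and 4 lay below every control mouse, and treated mouse 2 lay beside the highest control. The means were 6.90 ± 3.00 and 4.76 ± 3.72 CPM (SD, n = 4 each), and edgeR gave a log2 fold change of -0.54 ± 0.49 (SE) with an adjusted p of 0.745. Muc5b (ENSMUSG00000066108, chromosome 7, 141839070 to 141873084), the mucin required for mucociliary clearance, was at 68.1, 269, 268 and 88.9 CPM in control and at 57.3, 306, 73.2 and 76.2 CPM in treated mice. These values fell into 3 high mice, control 2 and 3 and treated 2, and 5 low mice, with no value between 88.9 and 268 CPM. The difference between the group means, 173.5 ± 110.0 and 128 ± 119 CPM (SD, n = 4 each), was within that spread (log2 fold change -0.44 ± 0.60, SE; adjusted p = 0.834, edgeR).

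Muc5ac and Muc5b are transcribed in the same direction and lie 19838 bases apart in the mucin cluster of chromosome 7. Per unit of length, Muc5b exceeded Muc5ac in all 8 mice, by 9.70-fold in control mouse 4 to 28.3-fold in control mouse 2. The log2 ratio averaged 4.02 ± 0.65 in control and 4.16 ± 0.33 in treated mice (SD, n = 4 each), so that they differed by 0.14 (p = 0.743 by a two-sided exact permutation test) and by -0.11 without control mouse 4. Of the other genes of this stretch, Muc2 and Muc6, the gel-forming mucins of intestine and stomach, were near the limit of detection, with at most 30 and 28 counts in any library. None of the 7 genes tested between Chid1 and Tollip passed an unadjusted p of 0.05 in edgeR.

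**Figure D3:**
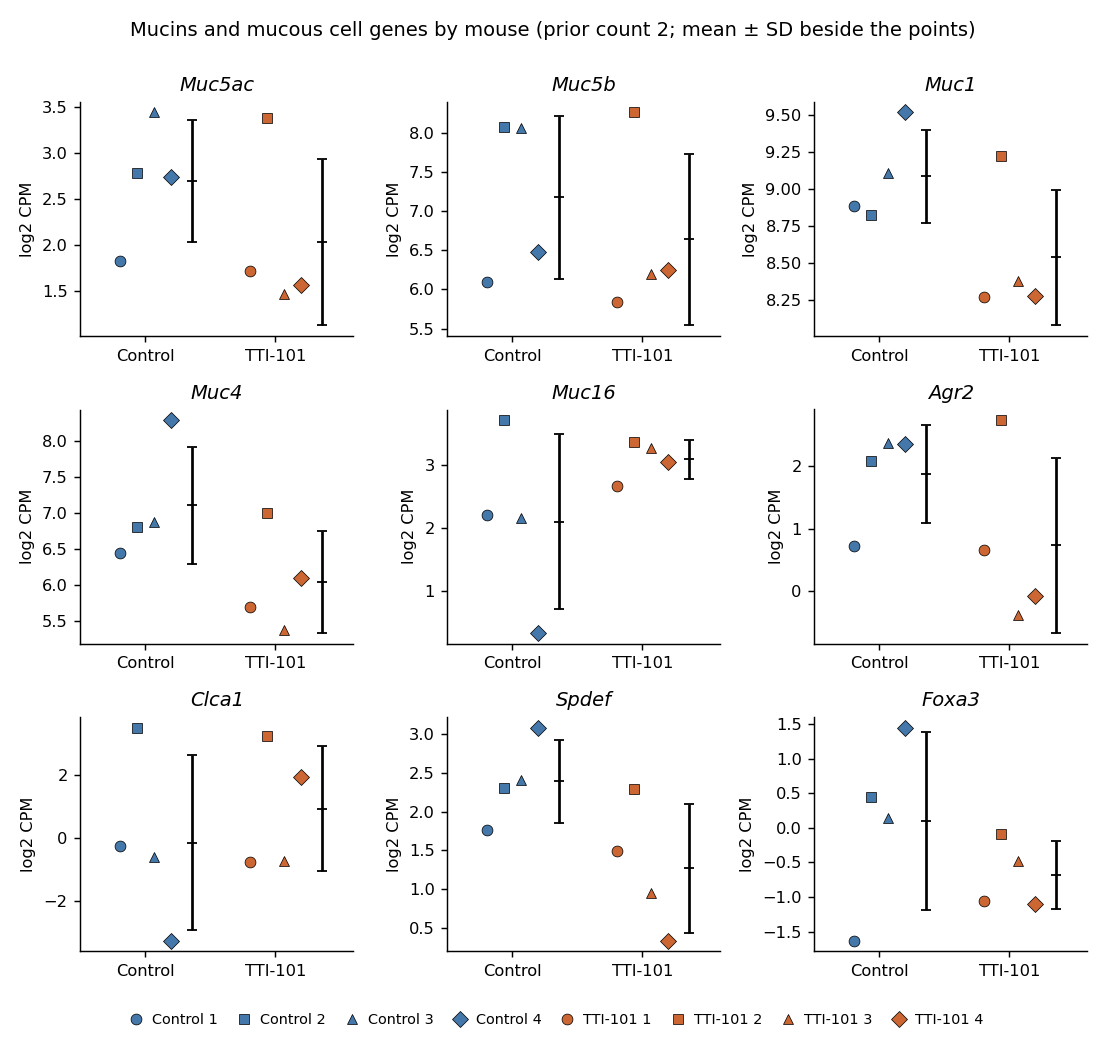
Log2 CPM (prior count 2) of the 9 genes by mouse, control in blue and TTI-101-treated in orange, with the mean and SD of each group beside the points; each panel has its own axis. Treated mice 1, 3 and 4 lie below all control mice for Muc5ac, Muc1, Muc4, Agr2 and Spdef, while treated mouse 2 lies within or above the control range in every panel.

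For the membrane mucins, Muc1 (ENSMUSG00000042784, chromosome 3, 89229057 to 89233381), which carries signalling motifs in its cytoplasmic tail, was at 472.5, 454, 553 and 732.5 CPM in control and at 309.6, 597, 332.5 and 311 CPM in TTI-101-treated mice. Treated mice 1, 3 and 4 were close to one another and below every control mouse, whereas treated mouse 2 exceeded 3 of the 4 controls. By edgeR the log2 fold change was -0.51 ± 0.25 (SE), with p = 0.0697 before and 0.657 after adjustment, and the two-sided exact permutation test over 70 assignments of the mice gave p = 0.114.

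Muc4 (ENSMUSG00000079620, chromosome 16, 32735886 to 32782391), a large membrane mucin that binds ErbB2, was at 87.5, 111.5, 117 and 312 CPM in control and at 51.8, 128, 41.4 and 68.2 CPM in treated mice. Control mouse 4 was by far the highest, and treated mice 1, 3 and 4 were again below every control. The means were 157 ± 104 and 72.4 ± 38.7 CPM (SD, n = 4 each). By edgeR's test the log2 fold change was -1.12 ± 0.45 (SE), with an unadjusted p of 0.0302 and an adjusted p of 0.657. With control mouse 4 left out, this estimate was -0.53 and its unadjusted p 0.139, and that p was also above 0.05 without treated mouse 1, 3 or 4 (0.0651 to 0.0841) and with no filter on low counts (0.0827). The neighbouring gene Muc20, another membrane mucin, overlaps Muc4 by 4973 bases on the opposite strand, and since the strand setting of the counting is not given in the sources used here, reads of the overlap cannot be assigned with certainty. Muc20 averaged 38.7 ± 20.0 CPM in control and 18.7 ± 2.79 CPM in treated mice (SD, n = 4 each). Its log2 fold change by edgeR was -1.05 ± 0.30 (SE), with an unadjusted p of 0.00526 and an adjusted p of 0.657.

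Muc16 (ENSMUSG00000109564, chromosome 9, 18495455 to 18674530), the carrier of the CA125 epitope and a product of mesothelium as well as of airway epithelium, was at 4.51, 12.97, 4.33 and 1.15 CPM in control and at 6.22, 10.2, 9.51 and 8.15 CPM in treated mice. All 4 treated mice lay above 3 of the controls and below control mouse 2. Muc16 thus had its estimate in the other direction from the remaining mucins, with a log2 fold change of 0.57 ± 0.54 (SE; adjusted p = 0.754, edgeR) and a two-sided exact permutation p of 0.2 for the mean log2 CPM. Without control mouse 2 the log2 fold change was 1.35 (unadjusted p = 0.0124 from edgeR) and the difference in mean log2 CPM 1.52 (two-sided exact permutation p = 0.0286, the smallest that 3 against 4 mice allow).

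Agr2 (ENSMUSG00000020581, chromosome 12, 35992907 to 36004087), the isomerase that folds mucins, was at 1.54, 4.13, 5.05 and 4.99 CPM in control and at 1.47, 6.55, 0.667 and 0.851 CPM in treated mice. Here the treated group spanned the whole range, with 3 mice below every control and treated mouse 2 above every control (log2 fold change -0.72 ± 0.69, SE; adjusted p = 0.754, edgeR). Clca1 (ENSMUSG00000028255, chromosome 3, 145003817 to 145032776) was the most uneven of the 9 genes, with 20, 189, 10 and 0 counts in control and 13, 156, 9 and 62 counts in treated mice. The 0 counts of control mouse 4 allow a level of up to 0.192 CPM (3 counts, counting error only). The high mice were control 2, at 11.3 CPM, and treated 2 and 4, at 9.37 and 3.77 CPM, and the remaining 5 were at 0.734 CPM or below. Between the lowest and highest mouse, the log2 CPM of Clca1 spanned 6.79, a width exceeded by 0.105% of the genes tested, where the median gene spanned 1.01. Its log2 fold change of 0.16 ± 1.28 (SE; adjusted p = 0.978, edgeR) took either sign as single mice were left out, and was 2.94 without control mouse 2 (unadjusted p = 0.0365 from edgeR).

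Of the transcription factors, Spdef (ENSMUSG00000024215, chromosome 17, 27714352 to 27728955), whose promoter is shown above, was at 3.30, 4.84, 5.21 and 8.38 CPM in control and at 2.71, 4.80, 1.83 and 1.16 CPM in TTI-101-treated mice. Treated mice 1, 3 and 4 were below every control and treated mouse 2 was below 3 of the 4 controls. Mean levels were 5.43 ± 2.13 and 2.63 ± 1.58 CPM (SD, n = 4 each). The log2 fold change was -1.04 ± 0.44 (SE), with p = 0.0395 before and 0.657 after adjustment by edgeR and p = 0.0571 by a two-sided exact permutation test. The unadjusted p of Spdef from edgeR lay between 0.0534 and 0.113 without control mouse 2, 3 or 4 or treated mouse 1, 3 or 4. Foxa3 (ENSMUSG00000040891, chromosome 7, 19013284 to 19023538) was counted with 6, 21, 18 and 41 reads in control and 10, 14, 11 and 6 reads in treated mice, so that counting error is large for this gene. Control mouse 4 was the highest and control mouse 1 the lowest at 2.62 and 0.220 CPM. By edgeR the log2 fold change was -1.19 ± 0.65 (SE), with an unadjusted p of 0.0972 and an adjusted p of 0.657. The estimate was -0.55 without control mouse 4 (unadjusted p = 0.391 from edgeR) and -1.56 without control mouse 1 (unadjusted p = 0.0125 from edgeR).

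How far these values rest on single mice was followed by leaving mice out. Without TTI-101-treated mouse 2, 6 of the 9 genes passed an unadjusted p of 0.05 in edgeR, namely Muc5ac, Muc5b, Muc1, Muc4, Agr2 and Spdef, all with lower levels in treated mice, and so did 14.2% of all genes tested. The log2 fold changes were then -1.23 for Muc5ac, -1.32 for Muc5b, -0.79 for Muc1, -1.53 for Muc4, -1.93 for Agr2 and -1.48 for Spdef. Mean log2 CPM then differed with a two-sided exact permutation p of 0.0286 for Muc1 and Spdef, the smallest that 4 against 3 mice allow. Without control mouse 4, 0 of the 9 passed, against 3.03% of all genes. The number was also 0 without treated mouse 1, 3 or 4, against 4.08%, 2.42% and 4.34% of all genes. With control mouse 4 and treated mouse 2 both left out, a comparison chosen after these values had been seen, the same 6 genes passed, as did 12.2% of all genes tested, and the median of the 9 log2 fold changes was -1.21. Over all alternatives run, the lowest adjusted p of any of the 9 genes was 0.196, for Muc4.

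Several of the 9 genes followed one another over the 8 mice. Of the 36 pairs, 9 had a Benjamini-Hochberg adjusted p under 0.05 for Pearson's r and 1 also for Spearman's rho, by exact permutation over all pairings. Control and treated mice were pooled here, so these coefficients and p-values mix differences between the groups with differences within them. The share of pairs that would pass among all genes tested was not computed, so these counts do not set the 9 genes apart. Muc1 and Muc4 had r = 0.921 (exact permutation p = 0.00107, adjusted 0.0223) and rho = 0.905 (exact permutation p = 0.00456, adjusted 0.0548), and r was 0.861 without the 2 mice farthest from the median of Muc1. Muc1 and Spdef had r = 0.904 (exact permutation p = 0.00213, adjusted 0.0223), rho = 0.81 (exact permutation p = 0.0218, adjusted 0.0784) and r = 0.929 without the 2 farthest mice. For Muc4 and Spdef r was 0.84 (exact permutation p = 0.00982, adjusted 0.0468) and rho 0.857 (exact permutation p = 0.0107, adjusted 0.0784), with r = 0.733 without the 2 farthest mice.

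Muc5ac and Agr2, the pair that passed by both coefficients, split the mice into the same 4 low animals, control 1 and treated 1, 3 and 4, and the same 4 high ones. Since the mice fell into separate groups for these 2 genes, as they did for Muc5b and Clca1, no pooled coefficient between them is quoted. Muc5b differed from that split in control mouse 4, which was among the low mice for Muc5b and among the high ones for Muc5ac and Agr2. Clca1 was high in control mouse 2 and treated mouse 2, as Muc5b was, but low in control mouse 3, where Muc5b, Muc5ac and Agr2 were high.

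**Figure D4:**
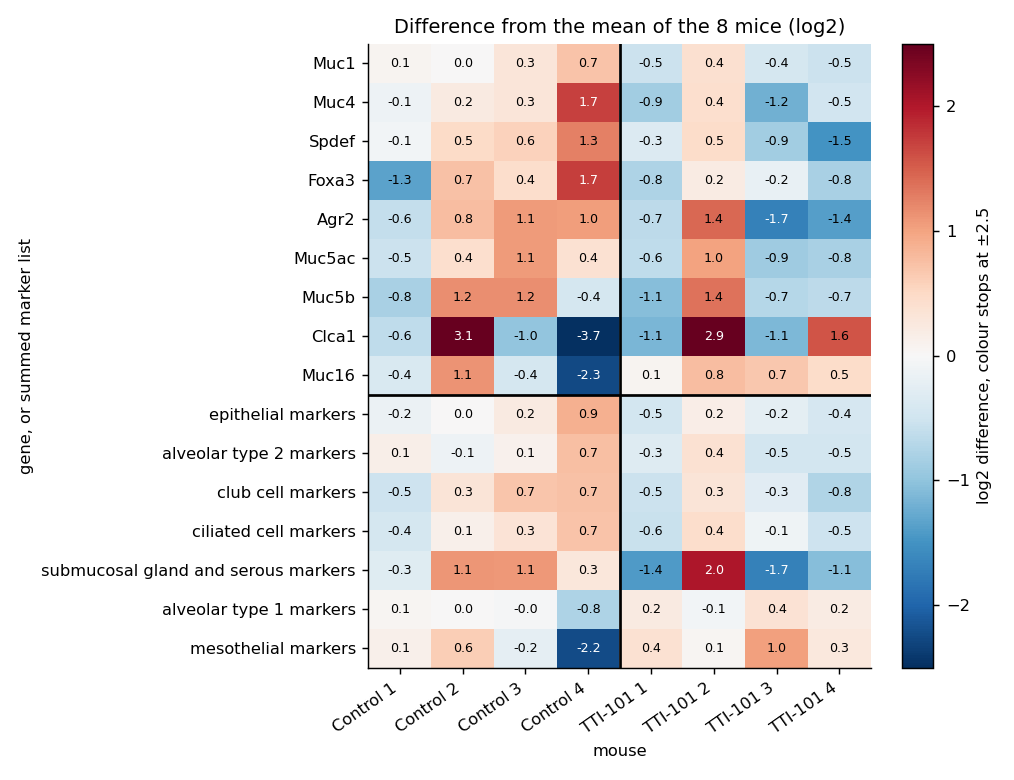
Log2 difference of each gene (above the line) and of each summed marker list (below the line) from its own mean over the 8 mice, with the value written in each cell; the color stops at ±2.5. Muc1, Muc4, Spdef and Foxa3 are highest in control mouse 4, as are the epithelial markers, whereas Muc16 and the mesothelial markers are lowest there.

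The genes were next set beside the marker lists. The summed level of 10 markers shared by many epithelial cells, led by Cdh1 and Krt7, ranged from 1689 to 3461 CPM in control and from 1366 to 2110 CPM in TTI-101-treated mice (two-sided exact permutation p = 0.114), and 10 of the 10 had a negative log2 fold change, 5 of them at an unadjusted p under 0.05 in edgeR. The same threshold was passed by 6.61% of all genes tested. Of 81 pairs of a gene and a marker list over the 8 mice, again with both groups pooled, 27 had an adjusted p under 0.05 for r and 17 for both coefficients, by exact permutation. How many would pass for other genes was not computed, so these counts cannot be read as particular to the mucous genes. Muc1 and the epithelial markers had r = 0.932 (exact permutation p = 0.000174, adjusted 0.00703), rho = 0.952 (exact permutation p = 0.00114, adjusted 0.0264) and r = 0.933 without the 2 mice farthest from the median of the markers. The same markers and Muc4 had r = 0.934 (exact permutation p = 0.00144, adjusted 0.0172), rho = 0.905 (exact permutation p = 0.00456, adjusted 0.0264) and r = 0.783 without the 2 farthest mice. Spdef and the epithelial markers had r = 0.862 (exact permutation p = 0.00556, adjusted 0.0286), rho = 0.905 (exact permutation p = 0.00456, adjusted 0.0264) and r = 0.94 without them. Relative to the epithelial markers of the same mouse, a scale chosen after these values had been seen, the log2 difference between treated and control mice was -0.58 for Muc4 (two-sided exact permutation p = 0.143) and -0.64 for Spdef (exact permutation p = 0.0857). On that scale it was -0.07 for Muc1, -0.19 for Muc5ac and -0.06 for Muc5b, with exact permutation p of 0.6 or more, and -0.66 for Agr2 (exact permutation p = 0.371) and -0.30 for Foxa3 (exact permutation p = 0.571). Muc16, at 0.99 unscaled, was at 1.47 on that scale (exact permutation p = 0.143), and Clca1, at 1.09 unscaled, was at 1.56 (exact permutation p = 0.543). The scale subtracts the same value from every gene, the log2 group difference of the marker sum itself, -0.48. That negative differences shrank and positive ones widened was therefore fixed by the scale and is no result about single genes.

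Ciliated cell markers summed to 961.5 to 2134 CPM in control and 888 to 1779 CPM in treated mice, and basal cell markers to 6.97 to 13.6 and 4.26 to 24.3 CPM. With the ciliated sum, Muc1 had r = 0.878 (exact permutation p = 0.00692, adjusted 0.0311) and rho = 0.929 (exact permutation p = 0.00223, adjusted 0.0264). Foxa3 had r = 0.907 (exact permutation p = 0.00198, adjusted 0.0199) and rho = 0.81 (exact permutation p = 0.0218, adjusted 0.0678) with it. Relations to the lists named next are therefore not particular to them. Muc1 also followed the summed level of the 10 alveolar type 2 markers (r = 0.962, exact permutation p = 0.000347, adjusted 0.00937; rho = 0.881, exact permutation p = 0.00724, adjusted 0.0367; r = 0.943 without the 2 farthest mice). Foxa3 followed the 10 club cell markers, which ranged from 19410 to 46410 CPM in control and from 16530 to 34580 CPM in treated mice (r = 0.893, exact permutation p = 0.00253, adjusted 0.0199; rho = 0.905, exact permutation p = 0.00456, adjusted 0.0264; r = 0.878 without the 2 farthest mice). Spdef did so as well, with r = 0.882 (exact permutation p = 0.00372, adjusted 0.0251), rho = 0.929 (exact permutation p = 0.00223, adjusted 0.0264) and r = 0.792 without them. The club cell sum was led by Scgb1a1 and Cbr2, and of its 10 markers 7 had a negative log2 fold change and 3 a positive one. These 3, Scgb3a1, Bpifa1 and Krt15, were lower in control mouse 4 than in any other control mouse, whereas Foxa3 and Spdef were highest there. Muc4 ran opposite to the summed level of the 8 alveolar type 1 markers in all mice, with r = -0.963 (exact permutation p = 2.48e-05, adjusted 0.00201), rho = -1.0 (exact permutation p = 4.96e-05, adjusted 0.00402) and r = -0.972 without the 2 farthest mice. Of these markers 7 had a positive log2 fold change. Aqp5 was the exception (-0.29), and like Muc4 it was highest in control mouse 4.

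Muc16 was set beside the 8 mesothelial markers, led by Upk3b and Msln, because mesothelium makes it. These markers summed to 222, 313, 174.5 and 43.8 CPM in control and to 268.5, 212, 418.5 and 246 CPM in treated mice, and 8 of the 8 had a positive log2 fold change, 0 of them at an unadjusted p under 0.05 in edgeR. Muc16 and their sum had r = 0.912 (exact permutation p = 0.00851, adjusted 0.0345) but rho = 0.69 (exact permutation p = 0.0694, adjusted 0.12), and r was 0.663 without the 2 farthest mice, so that the relation rests in part on control mouse 4, the lowest for both. The part of each of these cell types in the values of the mucous genes was not tested. Red blood cell markers summed to 58.5 to 264 CPM in control and 205 to 1587 CPM in treated mice (two-sided exact permutation p = 0.0571), with overlap between the groups, and 4 of the 5 tested were higher at an unadjusted p under 0.05 but none at an adjusted p under 0.05 in edgeR. In either direction, 6.61% of all genes tested passed that unadjusted threshold.

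**Figure D5:**
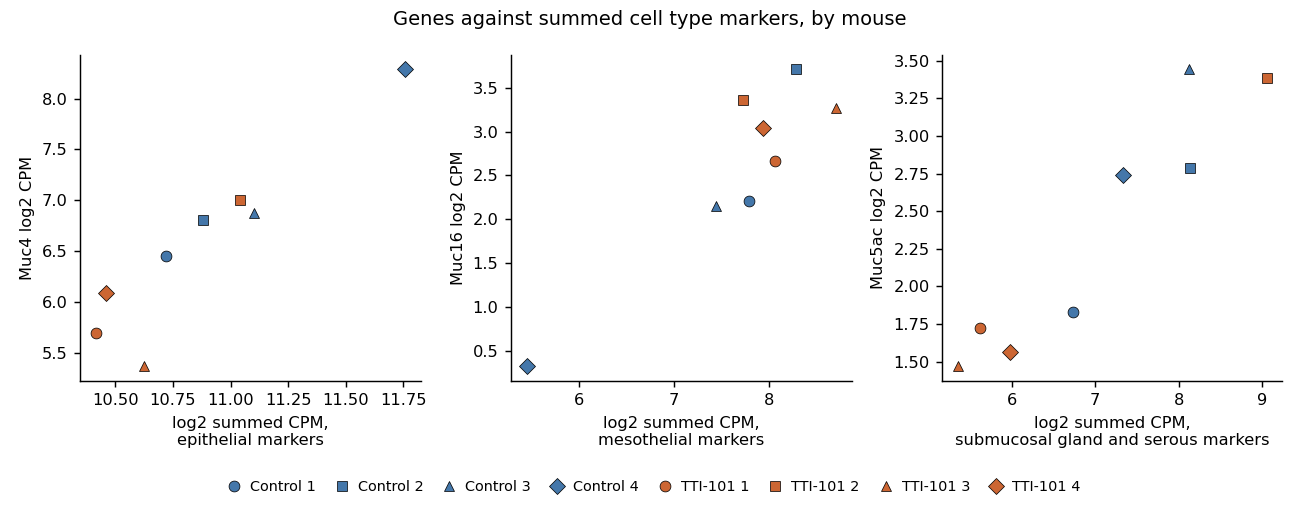
Log2 CPM of Muc4, Muc16 and Muc5ac against the log2 summed CPM of epithelial, mesothelial and submucosal gland and serous markers, with 1 point per mouse, control in blue and TTI-101-treated in orange. Control mouse 4 is the highest for Muc4 and the epithelial markers and the lowest for Muc16 and the mesothelial markers, and the 4 mice low for Muc5ac are also the 4 lowest for the serous list.

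The genes whose levels over the 8 mice were most like those of each of the 9 were picked by Pearson's r of log2 CPM among 17083 genes, as a description without a test. For Muc1 they were Npc2 (0.992), a lysosomal cholesterol carrier, Nectin4 (0.991), an adhesion protein of epithelia, and Mapk13 (0.99), the kinase p38 delta. Muc4 was followed by Grhl2 (0.993), a transcription factor of epithelial identity, Runx1 (0.989) and Map3k19 (0.987), and Spdef by Spa17 (0.983), Camkk1 (0.982) and Srp9 (0.981). Foxa3 was most like Evpl (0.977), which encodes envoplakin, Gm45051 (0.976) and Fdx1 (0.972), and Muc16 most like Adamtsl2 (0.983), Phldb1 (0.973) and Cish (0.971). For the 4 genes whose mice fell into separate groups, the same ranking is given without the coefficients. Muc5ac had Ttll6, which polyglutamylates ciliary tubulin, Cfap100 and Wdr38, and Agr2 had Casc1, Ankub1 and Rsph10b, a radial spoke protein of cilia. Muc5b had Arhgef39, Ttll3 and Pi4k2a, and Clca1 had Gm10676, Gabbr1 and Ptprr. Of these 27 genes, Grhl2, Map3k19 and Camkk1 had an unadjusted p under 0.05 in edgeR, as did 6.61% of all genes tested. Their log2 fold changes were -0.69, -1.07 and -0.40.

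The remaining genes of mucus production were examined in lists by function. In each list 0 genes passed an adjusted p of 0.05 in edgeR, and the adjusted p was 0.657 for each gene that passed the unadjusted threshold. Over these lists 21 genes passed an unadjusted p of 0.05, as did 6.61% of all genes tested, the share to set beside the count of each list below. Without control mouse 4, 7 of the 21 passed, as did 3.03% of all genes. They were Muc3a, Muc20, Adora3, Notch3, Il33, Jag1 and Il4ra, the last named only after its values were seen. Of the 21, 8 passed without treated mouse 3 (2.42% of all genes), and 10 to 19 without any of the other mice (4.08% to 14.2% of all genes). Of 15 other mucins and mucin-like proteins, 9 were tested, 2 were higher and 1 lower at an unadjusted p under 0.05, and the median log2 fold change was -0.08. The lower one was Muc20, described beside Muc4. The higher ones were Muc3a, a membrane mucin of the intestine with 3 to 29 counts per library (log2 fold change 1.48 ± 0.42, SE; unadjusted p = 0.00561, edgeR), and Emcn, the endothelial sialomucin (0.49 ± 0.22, SE; unadjusted p = 0.0468, edgeR). Of the 6 secreted goblet cell proteins tested, 0 passed that threshold, and their median was -0.13. The most abundant of them were Chia1, an acidic chitinase, at 347 ± 118 and 245 ± 89.6 CPM (SD, n = 4 each; log2 fold change -0.51, unadjusted p = 0.104 from edgeR), and Bpifb1, a secreted protein of the airway surface, at 156 ± 133 and 205 ± 257 CPM (log2 fold change 0.39, unadjusted p = 0.653 from edgeR).

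Mucins are O-glycosylated in the Golgi, and 26 of 30 genes of their glycosylation and folding were tested, St6galnac2 under 2 identifiers. At an unadjusted p under 0.05, 3 were lower and 0 higher, and the median log2 fold change was -0.07. These were Fut2, which fucosylates mucins, at 11.2 ± 9.61 CPM in control and 3.65 ± 2.15 CPM in TTI-101-treated mice (SD, n = 4 each; log2 fold change -1.62, unadjusted p = 0.0155 from edgeR), Galnt3, which starts O-glycan chains, at 36.1 ± 19.2 and 20.2 ± 3.57 CPM (-0.83, unadjusted p = 0.0206), and Gcnt4, which branches them, at 1.21 ± 0.591 and 0.518 ± 0.182 CPM (log2 fold change -1.21, unadjusted p = 0.0265). In control mouse 4, Fut2 was at 25.6 CPM against 5.98 to 6.71 CPM in the other control mice, and without that mouse the log2 fold changes were -0.80 for Fut2, -0.38 for Galnt3 and -0.83 for Gcnt4, with unadjusted p of 0.0685, 0.0501 and 0.097 from edgeR. Xbp1, a transcription factor of the secretory pathway, was at 273 ± 16.1 and 257 ± 9.56 CPM (log2 fold change -0.09, adjusted p = 0.843 from edgeR).

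Granule release was represented by 20 genes, all tested, of which 3 were lower and 1 higher at an unadjusted p under 0.05, with a median log2 fold change of -0.04. The lower ones were Adora3, the adenosine receptor A3, at 2.42 ± 1.16 and 0.683 ± 0.230 CPM (SD, n = 4 each; log2 fold change -1.82, unadjusted p = 0.00196 from edgeR), Syt2, a calcium sensor of regulated mucin secretion (-1.28, unadjusted p = 0.0199), and Rab27a, a small GTPase of secretory granules (-0.55, unadjusted p = 0.0381). Unc13d, a priming factor of exocytosis, was the higher one, at 78.4 ± 8.42 and 101 ± 16.6 CPM (log2 fold change 0.36, unadjusted p = 0.0363 from edgeR). Of 12 genes of electrolyte and water transport, 10 were tested. The chloride channel Ano1 was higher (log2 fold change 0.53, unadjusted p = 0.0454 from edgeR) and the cotransporter Slc12a2 lower (-0.85, unadjusted p = 0.0457), and the median of the list was -0.37.

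Of 41 upstream regulators 35 were tested, 7 were lower and 2 higher at an unadjusted p under 0.05, and the median log2 fold change was -0.09. By p they were led by Notch3, a receptor that favours the secretory fate, at 92.4 ± 16.2 CPM in control and 142 ± 33.8 CPM in treated mice (SD, n = 4 each; log2 fold change 0.62, unadjusted p = 0.00963 from edgeR). The next were the alarmin Il33 at 137 ± 34.5 and 91.4 ± 14.6 CPM (-0.58, unadjusted p = 0.0132), the Notch ligand Jag1 at 86.9 ± 28.3 and 52.1 ± 11.4 CPM (-0.74, unadjusted p = 0.0135) and Hnf4a at 4.32 ± 2.87 and 1.29 ± 1.12 CPM (log2 fold change -1.73, unadjusted p = 0.0251). Il13, the cytokine that classically drives mucous cells, had at most 1 count in any library, and Il9 had 0 in every library, so that neither could be compared at this depth. Stat6, which transmits IL-13 signals, had a log2 fold change of 0.13 (adjusted p = 0.742 from edgeR).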

How the data were processed

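Lung RNA was poly(A)-selected and sequenced with paired ends from libraries of the TruSeq Stranded mRNA kit, and the sequencing provider ran its pipeline. The submitters' processing notes name STAR, DESeq2 and mm10 without their roles or versions; the strand setting of the counting is not given in the sources used here. The authors deposited raw counts per gene for 54532 genes, with no column left unmatched to a sample and no 2 of the 8 libraries identical. In R 4.3.3, edgeR 4.0.16 with TMM and filterByExpr (minimum count 10) tested 17138 genes by robust quasi-likelihood F-tests with Benjamini-Hochberg adjustment and no covariate. Standard errors were derived from the F statistics. Mean log2 CPM (prior count 2) was compared by two-sided exact permutation. Alternatives used DESeq2 1.42.0, limma 3.58.1, other scalings, filters and prior counts, a replicate block, and each library left out. Steps were tested on simulated data. The 9 genes and all lists were chosen with earlier results of these data known. Other genes were mostly named by p (at most 4 per list), by level or by likeness. Some were named outside these rules, among them Stat6, Il13, Il9, Muc2, Muc6 and the trefoil factors. Pairs of genes and marker lists, the 3 against 3 fit, the list genes with single libraries left out and the epithelial scale were chosen after seeing the data. The labels give no litter, cage or batch, so p-values measure only the spread between these samples.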

Additional observations from a re-analysis of the deposited data

Results flagged for a closer look

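For each of the 9 genes, the ratio and the marker lists, the highest or lowest of 4 mice was set against the next one, and the distance was taken as a share of the whole range of the 4. In 5 of 38 groups of mice this share was above Dixon's critical value, where chance, at 1 in 20, gives 1.9. The 38 groups come from the same mice and are not independent, so the count does not measure an excess over chance. Treated mouse 2 was the distant mouse in 4 of the 5. Its share of the range was 0.867 for Muc5ac, at a log2 CPM of 3.38 against 1.47 to 1.73 in the other treated mice. For Muc5b the share was 0.83, with 8.26 against 5.84 to 6.25, and for Muc1 it was 0.891, with 9.22 against 8.28 to 8.38. The summed submucosal gland and serous markers gave 0.83, with 9.06 against 5.35 to 5.98 on the log2 scale. Control mouse 4 was distant in the summed alveolar type 1 markers, with a share of 0.901 and a log2 level of 11.3 against 12.1 to 12.2 in the other control mice. The cause of these gaps was not tested.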

How the results depend on the processing

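The number of the 9 genes past an adjusted p of 0.05 was 0 under all 16 alternatives. The number past an unadjusted p of 0.05, 2 with all mice in edgeR, was 1 with the replicate block and 6 with control mouse 4 and TTI-101-treated mouse 2 both left out, and ranged from 0 to 6 as each mouse was left out. The share of all genes tested past the same threshold, 6.61% with all mice, was 7.57%, 12.2% and 2.42% to 14.2% in these fits. The median log2 fold change of the 9 genes, -0.54, was -1.21 in that 3 against 3 comparison and ranged from -1.32 to -0.41 as each mouse was left out. The log2 fold change of Clca1, 0.16, was -1.42 in the 3 against 3 comparison and ranged from -0.97 to 2.94 as each mouse was left out, with a negative sign without control mouse 1, 3 or 4 or treated mouse 2. The other 8 genes kept their sign under every alternative run. The group difference in the log2 ratio of Muc5b to Muc5ac, 0.14, ranged from -0.11 to 0.41 as each mouse was left out. A filter of at least 10 counts in every library left no value for Clca1 and Foxa3. Causes were not tested.

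Replicate numbers were shared by the groups, and the labels do not say whether they mark pairs. In deviations from the group means, same-numbered mice had correlations of 0.393, 0.0822, 0.158 and 0.0707. By the same measure, 4 of the 8 libraries correlated best with their own number. Whether the numbers mark a pairing or a batch was not tested. With the number as a block in edgeR, Muc4 was the 1 gene of the set past the unadjusted threshold, and the count over all genes was 1298 in place of 1132. Foxa3, Clca1 and Agr2 have few reads, and Spdef (19 to 131 counts per library) and Muc16 (18 to 217) also have few in some libraries. Differences smaller than the counting error of these genes were not detectable at this depth.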
